A study of Mus musculus with 5 samples.

Results

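The tables listed 14 tRNA names with the anticodons CAA (leucine), TAT (isoleucine) or TCT (arginine), of 228 tRNA names and of 1038 names of repeats and non-coding RNAs in all. They were taken by name alone, as the rows that begin with tRNA_ and end with LeuCAA (4 names), IleTAT (5 names) or ArgTCT (5 names). The measurement was melRNA-seq, in which medium-length RNAs are sequenced from end to end and each read is assigned to a name. All mice were C57BL/6J at postnatal day 7. Total RNA of whole testis (600 ng) gave 3 libraries, with 1 library per treatment: left untreated, incubated for 1.5 h with TAP (25 U, tobacco alkaline phosphatase in the labels), or incubated for 30 min with 5Pase (20 U, a 5′ polyphosphatase). The remaining 2 libraries were replicates from spermatogonia purified by FACS on EpCAM, whose RNA was treated with RppH (RNA 5′ pyrophosphohydrolase). The testis libraries were built with a TruSeq kit and the spermatogonia libraries with a NEBNext kit, so tissue, enzyme and kit cannot be told apart in any comparison between them. The study calls the spermatogonia libraries biological replicates, and the labels do not name the animals behind them. The labels give an insert range of 115 to 255 nt for all 5 libraries, but the methods state it for testis only and say of spermatogonia that the libraries were selected by size on a gel. The tables hold no protein-coding gene, so the labelled tissue and cell type could not be checked against markers.

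A tRNA gene is transcribed by RNA polymerase III into a precursor with a 5′ leader and a 3′ trailer, and its first nucleotide carries a triphosphate. RNase P removes the leader and leaves a 5′ monophosphate, RNase Z removes the trailer, and in a minority of genes the TSEN endonuclease cuts out a short intron next to the anticodon before the RTCB ligase joins its exons. In mouse, genes of this kind are known for tyrosine GTA and for the 3 anticodons described here: LeuCAA reads the codon UUG, IleTAT reads AUA and ArgTCT reads AGA. The adaptor ligation needs a 5′ monophosphate, which TAP and RppH make from caps and triphosphates and 5Pase makes from triphosphates.

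The stated insert range lies above the length of the annotated genes, although the tables hold no read lengths. RefSeq (GRCm38.p6) gives the 408 nuclear tRNA genes spans of 70 to 107 bases with a median of 72, below the lower insert limit of 115 nt. Its 10 genes of the 3 anticodons spanned 105 to 107 bases for LeuCAA, 94 for IleTAT and 74 to 87 for ArgTCT, against 73 for the other arginine anticodons and 82 to 83 for the other leucine anticodons. A name was matched to a RefSeq gene only where a chromosome held 1 name and 1 gene of that anticodon, which placed 6 of the 14 names. The build behind the names in the tables is not given in the sources used here. The gene for chr11.trna1911-LeuCAA is n-TLcaa3 (chr11:58302474-58302580), and those for chr13.trna985-ArgTCT and chr19.trna637-ArgTCT are n-TRtct3 (chr13:21917162-21917247) and n-TRtct1 (chr19:12011588-12011673). None of these overlapped a GENCODE M21 gene. For chr11.trna1818-ArgTCT the gene is n-TRtct4 (chr11:69123482-69123568), which lies in a 3′ UTR exon of Hes7, a transcriptional repressor of the segmentation clock. For chr3.trna628-ArgTCT it is n-TRtct2 (chr3:122292948-122293032), inside an exon of a retained-intron transcript of the non-coding gene Gm17494. The gene for chr1.trna730-ArgTCT is n-TRtct5 (chr1:173390329-173390402), within Aim2, a sensor of cytosolic DNA, and outside its exons. With a span of 74 bases n-TRtct5 has no room for an intron, so the annotation goes against the intron-type label for that 1 name. The 3 LeuCAA names on chromosome 13 faced 3 RefSeq genes and the 2 IleTAT names there faced 1, so these were not paired. For the IleTAT names on chromosomes 1, 7 and 17 RefSeq lists no TAT gene. It does list 15 isoleucine AAT genes, and the 3 of them longer than 84 bases lie on chromosomes 7, 13 and 17.

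The sequences of an ArgTCT and an IleTAT gene are shown because they let the gene length be set against the insert size. Capitals mark the anticodon, both genes lie on the minus strand of GRCm38, and no other sequence is printed. The ArgTCT gene is that of chr3.trna628, the name with the most reads over the 5 libraries (585), read from the GENCODE transcript of Gm17494, with its anticodon at bases 34 to 36 of 85.
n-TRtct2 (chr3:122292948-122293032): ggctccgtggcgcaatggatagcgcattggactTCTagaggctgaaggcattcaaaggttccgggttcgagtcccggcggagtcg
The IleTAT gene n-TItat14 (chr13:21896938-21897031) lies within the RefSeq hairpin of the microRNA gene Mir1983, which adds 18 bases before it and 20 after it.
Mir1983 hairpin with n-TItat14 (chr13:21896918-21897049): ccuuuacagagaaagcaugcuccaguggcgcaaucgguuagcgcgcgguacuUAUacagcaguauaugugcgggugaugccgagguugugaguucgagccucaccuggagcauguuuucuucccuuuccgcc
The hairpin is 132 bases long, within the insert window, whereas the 94-base gene alone is not. n-TItat14 was not paired with a name, and chr17.trna516, which held 90.1% to 100% of the IleTAT reads, has no TAT gene in RefSeq. The hairpin length therefore does not stand for the IleTAT reads counted. Of the 21 bases of mature miR-1983, 13 lie in the tRNA and 8 in the bases after it. The tables give no read positions, so whether the counted reads carried leader, intron or trailer was not tested.

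Levels are given as normalised reads, the reads of a name divided by those of 5.8S rRNA in the same library and multiplied by 1000000. 5.8S rRNA is cut from a longer precursor and carries a 5′ monophosphate without any enzyme. The libraries held 207996 to 1236959 reads of 5.8S rRNA, which was 19.2% (5Pase) to 50.2% (TAP) of the listed reads, and 14147 to 75255 tRNA reads. A single read was worth 3.16 normalised reads in the untreated library, 1.87 with TAP, 4.81 with 5Pase, and 0.808 and 1.94 in the spermatogonia replicates. A count of 0 allows up to 3 reads, or 9.49, 5.60, 14.4, 2.43 and 5.82 normalised reads in the same order. Reads were not divided by gene length, since each is 1 whole insert. Intervals below are 95% intervals of the counts and cover counting error only, as PCR copies could not be removed. With 1 library per treatment they compare libraries, not treatments, and no p-value is given. Names that share most of their sequence could exchange reads in the assignment, so the split within an anticodon is less certain than its sum.

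The 14 names together were higher in both treated libraries of testis than in the untreated library under each scaling tried, and ArgTCT carried most of their reads there. They had 35 reads untreated, 291 with TAP and 685 with 5Pase, or 111, 543 and 3293 normalised reads. The ratio to untreated was 4.90 (3.45 to 6.96) for TAP and 29.7 (21.2 to 41.8) for 5Pase. Per listed read, the ratios were 9.04 (6.37 to 12.8) and 21 (15.0 to 29.5). Both comparisons use the same untreated library, so they are not independent of each other. As a share of tRNA reads, which needs no reference outside the tRNAs, the 14 names made up 0.247% (Wilson interval 0.178 to 0.344) untreated, 1.47% (1.31 to 1.64) with TAP and 3.81% (3.54 to 4.10) with 5Pase. These 3 intervals did not overlap.

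Of the 14 names, 7 were listed in the untreated library, 11 with TAP, 11 with 5Pase, and 14 and 12 in the spermatogonia replicates. The number of listed tRNA names moved in the same order, from 104 untreated to 141, 169, 215 and 208. The 7 names listed everywhere were 4 ArgTCT, 2 LeuCAA and 1 IleTAT. The plot of levels by name shows how far single names lay from each other in each library.

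**Figure D1:**
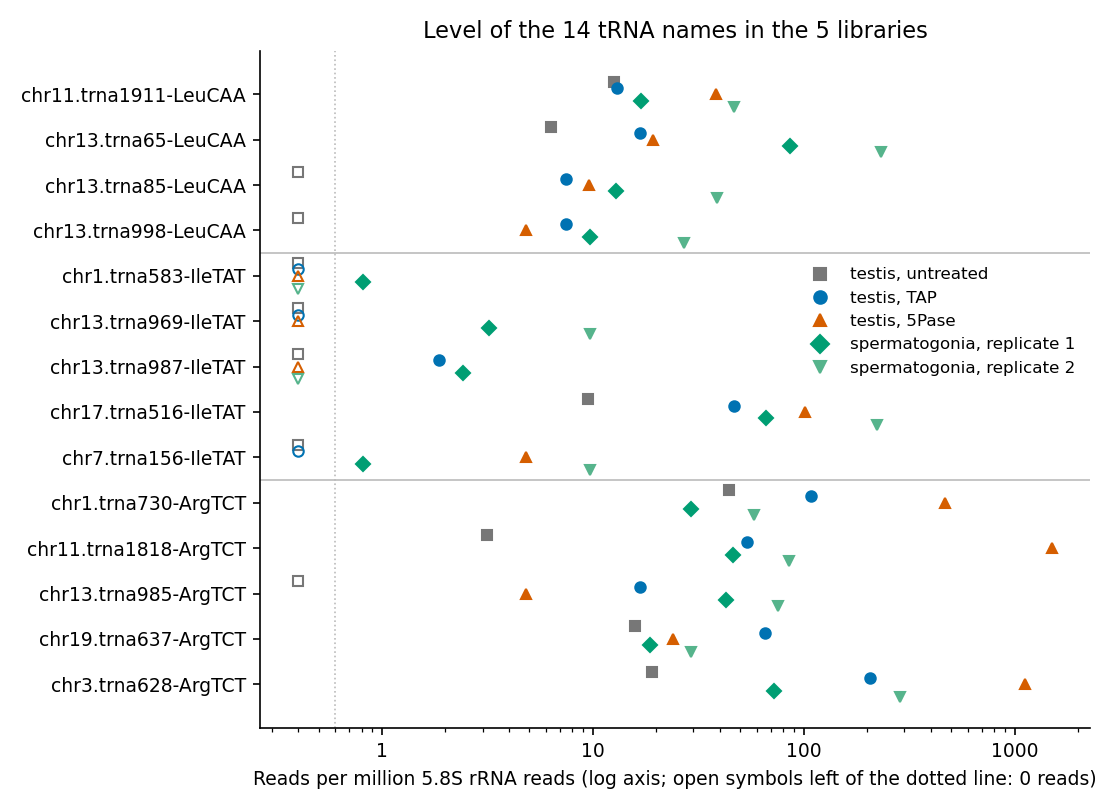
Normalised reads (per 1000000 reads of 5.8S rRNA, log axis) of each of the 14 tRNA names in the 3 testis libraries and the 2 spermatogonia replicates, with names at 0 reads drawn as open symbols left of the dotted line. The highest points are chr11.trna1818-ArgTCT (1505) and chr3.trna628-ArgTCT (1115) in the 5Pase library, while 4 of the 5 IleTAT names stay below 10 in every library.

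ArgTCT had 26 reads untreated, 241 with TAP, 648 with 5Pase, and 258 and 276 in the spermatogonia replicates. The normalised reads were 82.2, 450, 3115, 209 and 535. The 5Pase library was the highest and the untreated library the lowest. Over untreated, ArgTCT was 5.47 times as high with TAP (3.65 to 8.19) and 37.9 times as high with 5Pase (25.6 to 56.1). TAP over 5Pase was 0.144 (0.124 to 0.167).

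chr3.trna628-ArgTCT had 6, 110, 232, 89 and 148 reads, or 19.0, 205, 1115, 72 and 287 normalised reads, in the order untreated, TAP, 5Pase and spermatogonia replicates 1 and 2. It had more reads than any of the other 13 names in the TAP library and in spermatogonia replicate 2. The ratio to untreated was 10.8 (4.75 to 24.6) for TAP and 58.8 (26.1 to 132) for 5Pase.

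chr11.trna1818-ArgTCT, whose gene lies in the Hes7 exon, had 1, 29, 313, 57 and 44 reads in the same order. Its normalised reads were 3.16, 54.1, 1505, 46.1 and 85.3. In the 5Pase library it ranked 7 among 169 listed tRNA names and held 48.3% (44.5 to 52.1) of the ArgTCT reads, against 12% (8.51 to 16.7) with TAP. The untreated value is a single read, so its ratios are wide, 17.1 for TAP (exact interval 2.84 to 699) and 476 for 5Pase (84.8 to 18849). TAP over 5Pase was 0.0360 (0.0246 to 0.0526). Without this name the 5Pase ratio of all members was 16.6 and that of ArgTCT was 20.4. The tables do not separate reads of the tRNA gene from reads of its host transcript, and the part of Hes7 in this count was not tested.

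chr1.trna730-ArgTCT, the name whose gene lacks room for an intron, had 14, 58, 97, 36 and 30 reads. The normalised reads were 44.3, 108, 466, 29.1 and 58.2. It was the most abundant ArgTCT name in the untreated library, with 53.8% (35.5 to 71.2) of ArgTCT reads there, but 24.1% (19.1 to 29.8) with TAP and 15.0% (12.4 to 17.9) with 5Pase. Its ratio to untreated was 2.44 (1.36 to 4.38) for TAP and 10.5 (6.01 to 18.4) for 5Pase. The TAP interval of this name ended below that of chr3.trna628.

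chr19.trna637-ArgTCT and chr13.trna985-ArgTCT were higher with TAP than with 5Pase, the opposite of the other 3 ArgTCT names. chr19.trna637 had 5, 35, 5, 23 and 15 reads, or 15.8, 65.3, 24.0, 18.6 and 29.1 normalised reads. Its ratio was 4.13 (1.62 to 10.5) for TAP over untreated, 1.52 (0.440 to 5.25) for 5Pase over untreated and 2.72 (1.06 to 6.93) for TAP over 5Pase. chr13.trna985 had 0, 9, 1, 53 and 39 reads, or 0, 16.8, 4.81, 42.8 and 75.6 normalised reads. With the untreated count of 0 set to the 3 reads it allows, the ratio of TAP to untreated was 1.77. That value leaves out the counting error of the 9 TAP reads. TAP over 5Pase was 3.49 with an exact interval of 0.484 to 153, which includes 1.

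IleTAT was almost entirely chr17.trna516-IleTAT, which held 90.1% to 100% of its reads in each of the 5 libraries. That name had 3, 25, 21, 82 and 115 reads, or 9.49, 46.6, 101, 66.3 and 223 normalised reads. It was 4.91 times as high with TAP as untreated (exact interval 1.50 to 25.4) and 10.6 times as high with 5Pase (3.18 to 55.7). TAP over 5Pase was 0.462 (0.259 to 0.825) per 5.8S rRNA read but 1.21 (0.675 to 2.15) per listed read, so its direction turned with the denominator. The other 4 names had 0 to 5 reads in each library. chr13.trna969 was at 0 in all 3 testis libraries and had 4 and 5 reads in spermatogonia. chr7.trna156 had 0, 0, 1, 1 and 5 reads, chr13.trna987 had 0, 1, 0, 3 and 0, and chr1.trna583 had 1 read in all, in spermatogonia replicate 1. No fold is given for these 4 in testis because both libraries of each comparison were at or below 3 reads.

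LeuCAA was low in testis and shared among its names. The sum was 6, 24, 15, 156 and 178 reads, or 19.0, 44.8, 72.1, 126 and 345 normalised reads. The ratio to untreated was 2.36 (0.964 to 5.77) for TAP, an interval that includes 1, and 3.80 (1.47 to 9.79) for 5Pase. TAP over 5Pase was 0.621 (0.326 to 1.18) and, per listed read, 1.62 (0.850 to 3.09). Neither interval excluded equal levels.

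chr13.trna65-LeuCAA had 2, 9, 4, 107 and 120 reads, or 6.33, 16.8, 19.2, 86.5 and 233 normalised reads. Both spermatogonia replicates were above every testis library. Its share of LeuCAA reads was 68.6% (60.9 to 75.4) and 67.4% (60.2 to 73.9) in spermatogonia, against 37.5% (21.2 to 57.3) with TAP and 26.7% (10.9 to 52.0) with 5Pase. In the untreated library the share was 33.3% (9.68 to 70.0), from 2 reads, and that interval includes both spermatogonia shares. chr11.trna1911-LeuCAA had 4, 7, 8, 21 and 24 reads, or 12.7, 13.1, 38.5, 17.0 and 46.5 normalised reads, so its replicates overlapped the testis values. chr13.trna85 had 0, 4, 2, 16 and 20 reads and chr13.trna998 had 0, 4, 1, 12 and 14. Both were at 0 without treatment, and their 4 TAP reads put the bound of the ratio at 0.786, which does not show a rise.

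The composition by anticodon differed between the libraries. ArgTCT made up 74.3% (57.9 to 85.8) of the members' reads untreated, 82.8% (78.1 to 86.7) with TAP and 94.6% (92.6 to 96.1) with 5Pase. In spermatogonia it was 51.1% (46.7 to 55.4) and 47.7% (43.6 to 51.7), below the intervals of all 3 testis libraries. LeuCAA was 17.1% (8.10 to 32.7) untreated, 8.25% with TAP and 2.19% with 5Pase, and 30.9% and 30.7% in the replicates. IleTAT was 8.57% (2.96 to 22.4) untreated, 8.93% with TAP, 3.21% with 5Pase, and 18.0% and 21.6% in the replicates. The untreated intervals of LeuCAA and IleTAT, from 6 and 3 reads, overlapped the spermatogonia values. These shares do not depend on any denominator outside the 14 names.

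**Figure D2:**
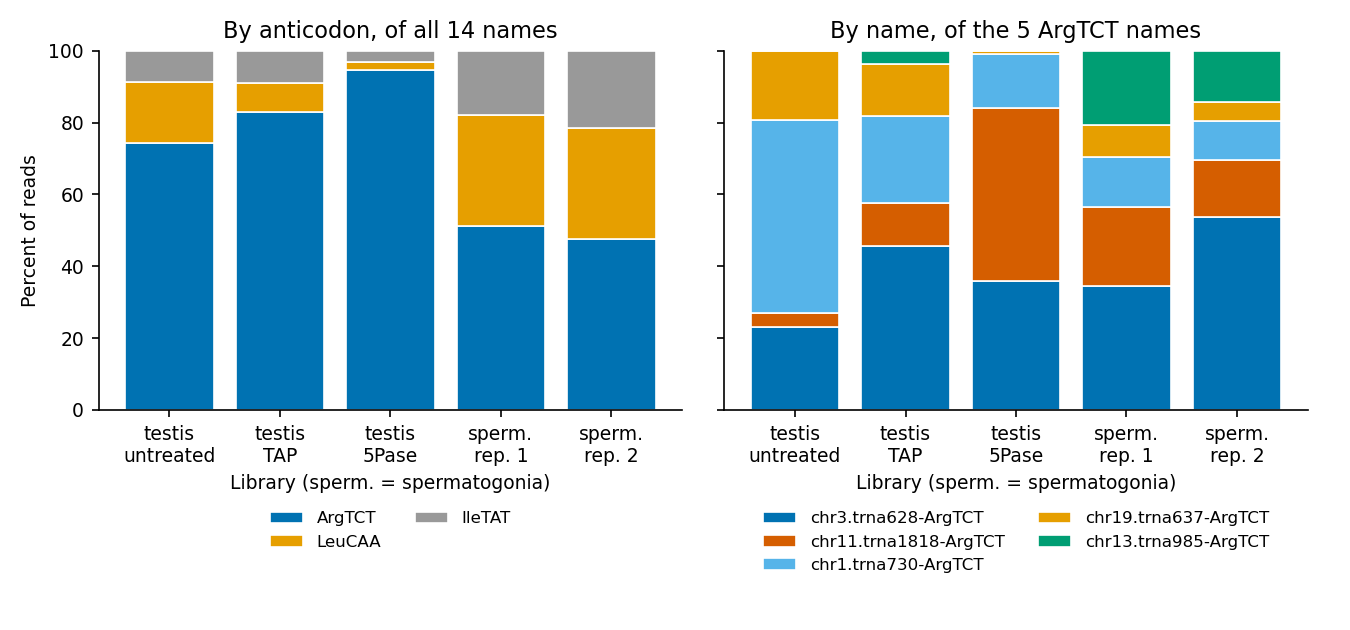
Percent of the reads of all 14 names by anticodon (left) and percent of the ArgTCT reads by name (right), 1 bar per library, each summing to 100. ArgTCT takes 74.3% to 94.6% in testis and 47.7% to 51.1% in spermatogonia, and within ArgTCT chr11.trna1818 takes 48.3% of the 5Pase bar.

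Taken as sums, the 14 names differed more between untreated and treated testis than the remaining 214 tRNA names, and less than tyrosine tRNA. The other tRNA names had a TAP ratio of 0.817 (0.799 to 0.835) and a 5Pase ratio of 1.86 (1.82 to 1.90). The members' ratio was 6.00 times theirs for TAP (4.22 to 8.53) and 16.0 times theirs for 5Pase (11.4 to 22.4). By the median of single testable names the gap was smaller, 4.13 against 1.60 for TAP and 10.6 against 6.02 for 5Pase, and the TAP ratio of the other tRNA names lay above 1 by the median and below 1 by the sum. TyrGTA, the remaining anticodon with intron-containing genes, went from 5 reads untreated to 766 with TAP and 616 with 5Pase, ratios of 90.4 (37.5 to 218) and 187 (77.7 to 451). The members' ratio was 0.0543 of that for TAP (0.0211 to 0.14) and 0.159 for 5Pase (0.0618 to 0.408). LeuCAA, IleTAT and ArgTCT were each below TyrGTA in both comparisons, with the upper bound of the relative ratio at 0.530 or less.

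Set against anticodons of the same amino acids, the ArgTCT sum had the higher ratio in both treated libraries, for TAP only narrowly without chr3.trna628. The intervals for LeuCAA and IleTAT do not show a difference. The other leucine tRNAs had ratios of 2.18 (1.74 to 2.71) for TAP and 7.71 (6.22 to 9.55) for 5Pase, against 2.36 and 3.80 for LeuCAA. The other isoleucine tRNAs had ratios of 4.91 (exact interval 1.50 to 25.4) and 13.7 (4.21 to 70.5), against 5.11 and 11.1 for IleTAT. The other arginine tRNAs had ratios of 3.30 (2.70 to 4.04) and 8.01 (6.54 to 9.80), against 5.47 and 37.9 for ArgTCT. Relative to the other anticodons of its own amino acid, ArgTCT was 1.66 (1.05 to 2.60) for TAP and 4.73 (3.04 to 7.35) for 5Pase. Without chr3.trna628 the ArgTCT ratio to untreated was 31.6 for 5Pase but 3.86 for TAP. The latter lay within the interval of the other arginine tRNAs, so the TAP difference depended on that name. LeuCAA was 1.08 (0.431 to 2.72) and 0.493 (0.187 to 1.30), and IleTAT was 1.04 (0.192 to 5.65) and 0.815 (0.149 to 4.44). Those 4 intervals include 1. 5S rRNA, another polymerase III transcript with a 5′ triphosphate, had ratios of 4.14 (3.99 to 4.30) for TAP and 7.18 (6.91 to 7.46) for 5Pase. Relative to it the members were 1.18 (0.832 to 1.68) for TAP and 4.14 (2.94 to 5.83) for 5Pase.

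**Figure D3:**
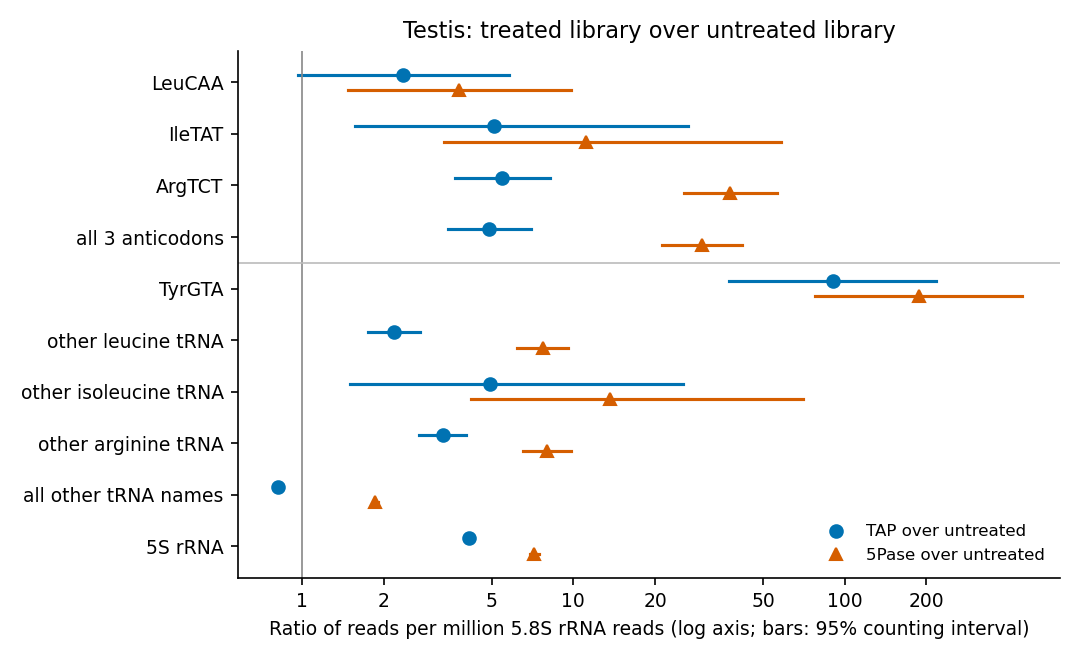
Ratio of the TAP library (circles) and the 5Pase library (triangles) to the untreated library of testis, in normalised reads on a log axis, for the 3 anticodons, their sum and the comparison groups, with bars for the 95% counting interval (exact where a library has 3 reads or fewer). The sum of the 3 anticodons lies at 4.90 and 29.7, between all other tRNA names (0.817 and 1.86) and TyrGTA (90.4 and 187).

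The members were also counted by fold. A name was called when its level differed by at least 2-fold and both libraries held at least 10 reads of it together, with a 0 set to 3 reads and no call where neither library exceeded 3. For TAP over untreated, 7 of the 14 names could be tested and 6 were called higher, all but chr11.trna1911-LeuCAA. The background was 28.8% of 323 names, and 30 of 72 other tRNA names (41.7%). No member was called lower, against 45.5% of all names. Per listed read the same count of members was called higher, while the background changed to 37.8% higher and 32.5% lower. For 5Pase over untreated, 5 of 6 testable members were called higher, beside 41.1% of 314 names and 74.4% of 90 other tRNA names, and none was called lower beside 3.18%. The 7 or 8 names that could not be tested had too few reads. Apart from chr1.trna730-ArgTCT, each testable member had fewer than 10 untreated reads and reached the minimum through the treated library. chr11.trna1818, with 1 untreated read, and chr13.trna65, with 2, entered the TAP count in a way that left only a call of higher. The same held for chr11.trna1818, chr17.trna516 and chr11.trna1911, with 1, 3 and 4 untreated reads, in the 5Pase count. In the TAP count chr17.trna516, chr11.trna1911 and chr19.trna637, with 3 to 5 untreated reads, could not have been called lower. These counts are therefore a description and no support for a difference.

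For TAP over 5Pase, 2 of 8 testable members were called higher, chr13.trna985 and chr19.trna637, beside 7.23% of 346 names and 1 of 94 other tRNA names. With 9 TAP reads and 1 5Pase read, chr13.trna985 entered in a way that left only a call of higher. chr19.trna637, with 35 and 5, also reached the minimum through the TAP library. These 2 calls are a description and no support for a difference. The members called lower were 5 of 8, beside 68.8% of all names and 79.8% of other tRNAs. Per listed read 3 were higher and 2 lower, with backgrounds of 18.8% and 35.3%. The median ratio over all testable names, in log2, was -0.76 for TAP over untreated, 0.82 for 5Pase over untreated and -1.75 for TAP over 5Pase per 5.8S rRNA read, so these scales are shifted for most names. Over the testable members alone, chosen by the same minimum, the median ratios were 4.13, 10.6 and 0.401, those of the other tRNA names 1.60, 6.02 and 0.302.

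In spermatogonia, the sums of LeuCAA and of IleTAT were above the TAP library of testis per 5.8S rRNA read in both replicates. ArgTCT lay on both sides of it. For IleTAT the interval of replicate 1 (0.981 to 2.35) included 1. The sum of the other tRNA names was also above the TAP library, at 1.66 and 3.73. Relative to that sum, IleTAT was at 0.915 (0.592 to 1.42) and 1.34 (0.877 to 2.04), and both intervals include 1. LeuCAA was at 1.70 (1.11 to 2.61) and 2.06 (1.35 to 3.16), with most of its spermatogonia reads from chr13.trna65. In such bulk samples fewer cells of a type and less RNA per cell cannot be told apart. The 14 names had 505 and 579 reads, or 408 and 1123 normalised reads (766 ± 505, SD, n = 2). The second value was 2.75 times the first (2.44 to 3.10), so replicate 2 exceeded replicate 1 by more than counting error. The same ratio was 2.25 (2.23 to 2.28) for the other tRNA names and 4.27 (4.2 to 4.34) for 5S rRNA. As a share of tRNA reads the members were closer, at 0.671% (0.615 to 0.732) and 0.818% (0.754 to 0.887), a mean of 0.744% ± 0.104 (SD, n = 2). That mean lay between the untreated (0.247%) and TAP (1.47%) libraries of testis.

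The mean ratio of the replicates to the TAP library was 1.41 ± 0.931 (SD, n = 2), from 0.752 and 2.07, so the replicates fell on both sides of equality. Per listed read it was 0.826 ± 0.340 and per tRNA read 0.508 ± 0.0708. LeuCAA was at 5.26 ± 3.46 (2.82 and 7.71), IleTAT at 3.26 ± 2.46 (1.52 and 5.00) and ArgTCT at 0.827 ± 0.514 (0.464 and 1.19). Per tRNA read the order was the same, with LeuCAA at 1.90 ± 0.258, IleTAT at 1.14 ± 0.30 and ArgTCT at 0.302 ± 0.0274. On that scale the LeuCAA sum was above the TAP library and the ArgTCT sum below it in both replicates. The LeuCAA value rested on chr13.trna65. Per tRNA read chr11.trna1911 was at 0.876 ± 0.120, chr13.trna85 at 1.23 ± 0.245 and chr13.trna998 at 0.886 ± 0.134. The counting intervals of these names include 1 in each replicate. TyrGTA was at 1.62 ± 1.23 per 5.8S rRNA read and 0.562 ± 0.154 per tRNA read.

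Single names spread around these values. chr13.trna65-LeuCAA was the highest at 9.51 ± 6.16 (5.15 and 13.9) and remained above the TAP library per tRNA read, at 3.44 ± 0.426. chr13.trna985-ArgTCT was at 3.53 ± 1.38 per 5.8S rRNA read and 1.38 ± 0.239 per tRNA read. From 9 TAP reads, its counting intervals per tRNA read were 0.766 to 3.15 and 0.588 to 2.51, and both include 1. The other ArgTCT names were below 1 per tRNA read in both replicates, though chr11.trna1818 averaged 1.21 per 5.8S rRNA read. chr19.trna637-ArgTCT was at 0.365 ± 0.114 and chr1.trna730-ArgTCT at 0.403 ± 0.190, below the TAP library in both replicates on either scale. chr3.trna628-ArgTCT split, at 0.351 and 1.40, and its replicate 2 level was 3.99 times that of replicate 1 (3.07 to 5.19).

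**Figure D4:**
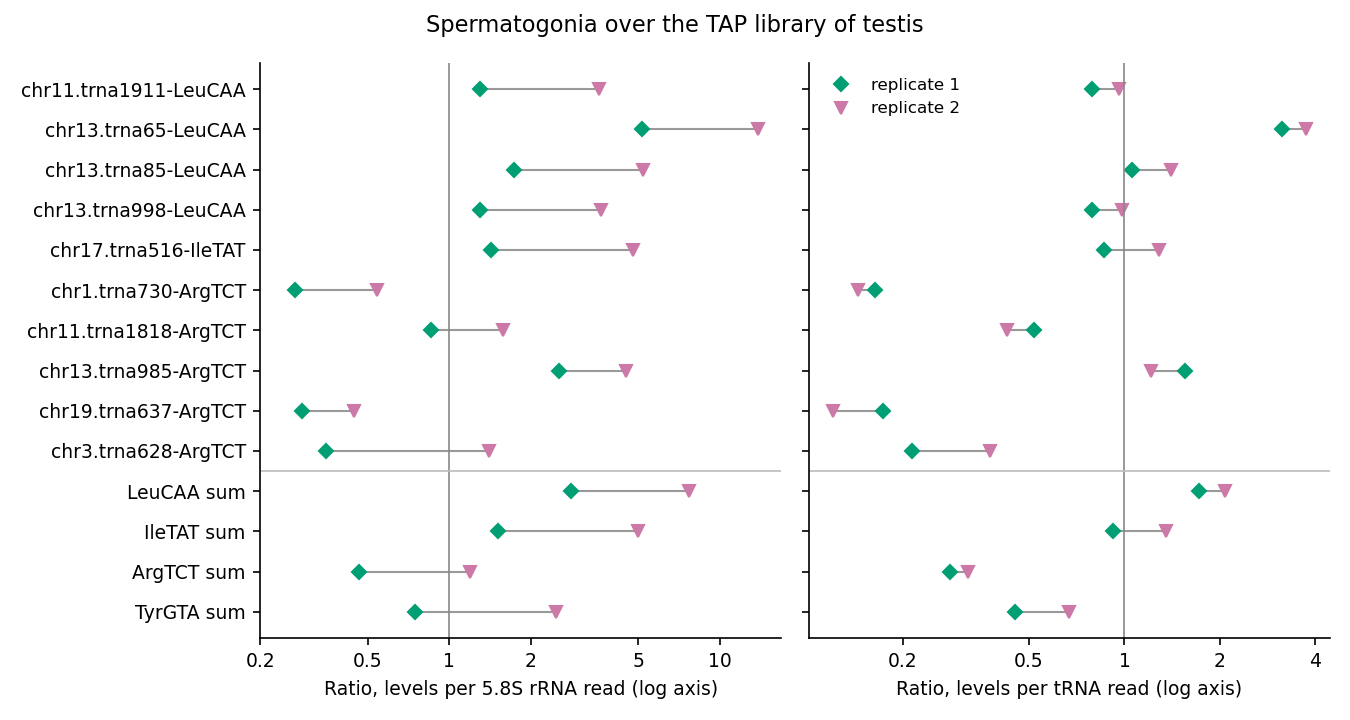
Ratio of each spermatogonia replicate to the TAP library of testis (log axes), per 5.8S rRNA read on the left and per tRNA read on the right, for the 10 names with at least 10 reads and the sums of LeuCAA, IleTAT, ArgTCT and TyrGTA. chr13.trna65-LeuCAA lies farthest right on both scales (9.51 and 3.44 on average), and chr19.trna637-ArgTCT and chr1.trna730-ArgTCT lie left of 1 in both replicates.

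A name was called between spermatogonia and TAP-treated testis only where both replicates passed 2-fold in the same direction. Of the 10 testable members, chr13.trna65 and chr13.trna985 were called higher, beside 54.1% of the 401 testable names listed in both tissues and 65.4% of 130 other tRNA names. chr19.trna637 alone was called lower, beside 15.5% of all names. Per listed read chr13.trna65 alone was called higher, beside 44.4%, and chr1.trna730 and chr19.trna637 were called lower, beside 20.2%. All 4 LeuCAA names, with 4 to 9 TAP reads, and chr13.trna985, with 9, reached the minimum of reads only through spermatogonia. The calls of higher are therefore a description and no support for a difference. The members' median ratio was 2.45, against 3.12 over all names (1.64 in log2) and 7.59 over the other tRNA names. The other leucine tRNAs were at 40.6 ± 38.2, the other isoleucine tRNAs at 11.5 ± 1.59 and the other arginine tRNAs at 2.18 ± 1.77. Relative to the other anticodons of its own amino acid, LeuCAA was at 0.207 (0.133 to 0.322) in replicate 1 and 0.114 (0.0736 to 0.177) in replicate 2. IleTAT was at 0.147 (0.0811 to 0.265) and 0.397 (0.221 to 0.714), and ArgTCT at 0.499 (0.409 to 0.609) and 0.347 (0.286 to 0.421). All 6 intervals lay below 1.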

How the data were processed

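The values are counts of reads per name, deposited by the authors as 1 table per library. The authors trimmed 3′ adaptors with Cutadapt, discarded testis reads without an adaptor and assigned reads with RepeatMasker to repeats and non-coding RNAs. Versions, the source of the tRNA names and the use of strand are not given in the sources used here. The labels repeat the testis protocol for spermatogonia, and their enzyme and kit were taken from the study's methods. The untreated and the 5Pase tables each hold 1 line without a count, which was left out, and there were 0 other columns of samples. Listed reads numbered 1067851 to 3166394 per library.

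Names written differently in the testis and spermatogonia tables were matched as whole names. Before that, the class of repeats and the prefix of rRNA names were removed, and B2_MM was written B2_Mm. All 14 names of the 3 anticodons were described. TyrGTA, the other leucine, isoleucine and arginine anticodons, all other tRNA names and 5S rRNA were compared as sums only. Members and lists were chosen with earlier results of these data known. Ratios of reads per 5.8S rRNA read carry a 95% interval from the log ratio of the counts, or an exact conditional interval where a library had 1 to 3 reads (an alternative chosen after seeing the data). Ratios relative to another group carry the log-ratio interval only, also for IleTAT and the other isoleucine tRNAs with 3 untreated reads each. Shares carry Wilson intervals. A 0 was set to 3 reads for bounds. No significance test was made, since each testis treatment had 1 library. Alternatives changed the denominator, the members summed, the minimum of reads, the testis library and the replicates. The log-ratio interval was tested on simulated data, only for names with a mean of at least 10 reads. That test does not cover the smaller counts of many names here. Python 3.11.15, numpy 2.4.6, scipy 1.17.1, Biopython 1.88 and matplotlib 3.10.9 were used.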

Additional observations from a re-analysis of the deposited data

How the results depend on the processing

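Under every alternative tried, the sum of the 3 anticodons stayed above untreated with TAP (6 alternatives) and with 5Pase (7 alternatives). For the sum TAP also stayed below 5Pase (7 alternatives), but none left out both chr11.trna1818 and chr3.trna628. Those names had 29 and 110 TAP reads against 313 and 232 5Pase reads. By the median of testable members, TAP over 5Pase was 0.401 per 5.8S rRNA read and 1.05 per listed read. For the sum, TAP over untreated moved from 4.90 to 9.04 per listed read, 13.2 per median name and 7.92 per sequenced read. 5Pase over untreated moved from 29.7 to 21 per listed read, 15.4 per tRNA read, 19.8 per median name and 16.6 without chr11.trna1818-ArgTCT. TAP over 5Pase moved from 0.165 to 0.430, 0.385, 0.565 and 0.348 per listed read, tRNA read, median name and sequenced read, and to 0.273 without chr11.trna1818-ArgTCT. Spermatogonia over TAP turned from 1.41 to 0.826 per listed read, 0.508 per tRNA read, 0.660 per median name and 0.232 against the 5Pase library. Against the untreated library it was 6.92, and leaving out a spermatogonia replicate gave 0.752 to 2.07. The sequenced-read denominator and the omission of chr11.trna1818 were chosen after seeing the data.

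For single anticodons, TAP over 5Pase turned above 1 for LeuCAA per listed read (1.62), tRNA read (1.45), median name (2.13) and sequenced read (1.31), and for IleTAT per listed read (1.20), tRNA read (1.07) and median name (1.57). ArgTCT in spermatogonia over testis turned above 1 against the untreated library (4.52) and ranged from 0.464 to 1.19 when a replicate was left out. The cause of these turns was not tested.

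Without chr3.trna628 the share of tRNA reads was 0.912% with TAP, 2.52% with 5Pase, and 0.553% and 0.609% in spermatogonia. With TyrGTA added it was 5.33%, 7.23%, 2.42% and 3.41%. The spermatogonia mean of 0.744% ranged from 0.671% to 0.818% over the replicates. With a minimum of 30 reads, names called higher fell from 93 to 53 for TAP over untreated, from 129 to 79 for 5Pase over untreated and from 25 to 13 for TAP over 5Pase. Per listed read, those called lower went from 10 to 19 for 5Pase over untreated and from 238 to 122 for TAP over 5Pase, where those called higher went from 25 to 65.

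No paired analysis was possible because each testis treatment has 1 library, so no comparison shares 2 replicate numbers. The 35 reads of the untreated library limit every ratio to it, and with 1 library per testis treatment no difference between treatments has a replicate check.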
